A study of Homo sapiens with 10 samples.

Results

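Collagens, laminins and integrins are the main fibre and sheet proteins of the extracellular matrix and the receptors that hold cells to it. The genes described here were all rows of the RNA-seq count table whose symbol is that of a collagen chain (43 genes), a laminin alpha, beta or gamma chain (12 genes) or an integrin alpha or beta chain (26 genes), 81 genes of the 31017 in the table. The rule used the symbols alone. Their level was compared between H9 (WA09) human embryonic stem cells (ESCs), an established line grown undifferentiated on the Pluripro medium and matrix, and neuroectodermal cells (NECs) made from the same line and harvested at day 7. Promoter contacts of the same genes were read from Promoter Capture Hi-C (PCHi-C), a Hi-C in which ligation products that hold a promoter fragment are pulled out before sequencing. Each assay had 2 biological replicates per cell type, and ESC replicate 2 of PCHi-C joined technical replicates. All cells came from 1 line, so the replicates measure the spread between cultures of that line.

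A collagen molecule is a helix of alpha chains, and each chain has its own gene. Fibrillar collagens form cable-like fibrils, collagen IV forms the mesh of basement membranes, and FACIT collagens (fibril-associated collagens with interrupted helices) sit on fibril surfaces. A laminin is a cross-shaped molecule of an alpha, a beta and a gamma chain and starts basement membrane assembly, also around the early epithelium and the neural tube. An integrin pairs an alpha with a beta chain in the cell membrane and binds matrix outside and the actin skeleton inside, and pluripotent stem cells in culture need integrin contact with laminin or a like matrix protein.

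The sequences that carry the promoter results are the gaps between collagen IV genes, which lie head to head and are read away from each other. COL4A6 (chrX:107386780-107682727, minus strand) and COL4A5 (chrX:107683074-107940775, plus strand) have 340 bases between their outermost annotated starts, and the HindIII site in capitals splits that gap. HindIII is the enzyme that cut the genome into the fragments of PCHi-C, so the site put each start on a bait (a captured promoter fragment) of its own. The middle 300 bases of the gap (chrX:107682748-107683047, GRCh37, plus strand) hold 49.0% G and C and 10 CpG dinucleotides.
COL4A6/COL4A5 gap: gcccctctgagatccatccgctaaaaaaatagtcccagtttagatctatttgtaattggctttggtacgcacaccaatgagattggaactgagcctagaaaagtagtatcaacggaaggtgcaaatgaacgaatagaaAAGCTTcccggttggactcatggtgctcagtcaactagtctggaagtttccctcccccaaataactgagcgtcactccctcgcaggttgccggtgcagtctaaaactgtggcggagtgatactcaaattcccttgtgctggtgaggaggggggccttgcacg
COL4A4 (minus strand) and COL4A3 (plus strand) on chromosome 2 have 111 bases between their outermost annotated starts (chr2:228029170-228029280, plus strand), with no HindIII site, and share a bait.
COL4A4/COL4A3 gap: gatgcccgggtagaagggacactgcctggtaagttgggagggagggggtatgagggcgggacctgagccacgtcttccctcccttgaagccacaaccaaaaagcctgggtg
The annotated COL4A1 and COL4A2 genes on chromosome 13 overlap at their starts and also share a bait. The letters AAGCTT of a HindIII site occurred, on either strand since the site reads the same on both, in the 300 bases before the outermost start of 7 of the 81 genes (8.64%) and of 5.82% of all 18590 protein-coding genes. The counting did not use strand, so reads in the COL4A1 and COL4A2 overlap cannot be assigned to either gene by direction.

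The 100 bases before the outermost annotated start are shown for COL3A1, whose transcript rose, and for LAMA2 and LAMC3, which fell most, with CpG dinucleotides in capitals, since these promoters differ widely in composition. They are given in the direction of transcription from GRCh37: COL3A1 chr2:189838946-189839045, LAMA2 chr6:129204183-129204282 and LAMC3 chr9:133884369-133884468 (plus strand).
COL3A1: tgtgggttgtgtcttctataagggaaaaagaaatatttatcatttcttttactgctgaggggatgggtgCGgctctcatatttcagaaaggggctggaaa
LAMA2: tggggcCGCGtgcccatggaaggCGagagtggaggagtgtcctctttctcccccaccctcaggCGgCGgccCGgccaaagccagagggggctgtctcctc
LAMC3: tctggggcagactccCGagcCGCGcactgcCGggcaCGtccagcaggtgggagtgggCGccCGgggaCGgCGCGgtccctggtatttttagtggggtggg
Over 300 bases, COL3A1 had 2 CpG dinucleotides and 33% G and C. LAMA2 had 9 and 50.3%, and LAMC3 had 18 and 59.3%. The median number of CpG dinucleotides was 11 over the 81 genes and 15 over all protein-coding genes. The COL3A1 promoter was thus poorer in CpG than most, and that of LAMC3 richer. LAMA2, which also fell, lay under both medians. COL2A1, which had the largest rise, had 22 CpG dinucleotides and 75.3% G and C over 300 bases. A link between composition and the direction of change was not tested.

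Gene counts summed to 19234087 and 25356382 for ESCs and to 20793224 and 24323762 for NECs, and the 81 genes took between 0.588% and 0.632% of them. The labels were checked against marker lists. Of 10 pluripotency genes 9 were called lower in NECs, and of 10 neuroectoderm genes 8 were called higher. Replicates of a cell type were not identical in other markers. The summed level of 10 mesendoderm genes was 92.8 CPM (gene counts scaled to library size) in ESC replicate 1 and 221 CPM in ESC replicate 2. That of 10 neural crest genes was 293 CPM in NEC replicate 1 and 165 CPM in NEC replicate 2 (158 and 145 CPM in ESCs). Most of the neural crest sum in ESCs was ETS1 (mean 106 CPM, and 16.7 CPM in NECs), the 1 gene of the list called lower. Of the 10 neural crest genes 6 were called higher. With 2 libraries a cell type, p-values measure the spread between these samples only. Lane and cell type cannot be told apart, because each cell type had its RNA-seq libraries in a lane of its own. The same holds for the form of the culture, colonies for ESCs and spheres for NECs. In bulk RNA, a change in the number of cells that make a transcript and a change in the amount per cell cannot be told apart either.

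Of the 81 genes, 69 had enough counts to be tested with edgeR, 11 were called higher in NECs and 12 lower. A gene was called when its adjusted p was below 0.05 and its log2 fold change beyond 1.5 in either direction. The called share was 33.3%, where 21.0% of all 17564 tested genes were called (11.4% higher and 9.68% lower). At the adjusted p alone, 25 rose and 22 fell, where 31.5% of all tested genes rose and 29.7% fell (61.1% in all). The median log2 fold change was 0.13 over the 69 genes and 0.01 over all genes, and the calls ran in both directions. By family, collagens gave 7 higher and 7 lower calls of 38 tested, laminins 0 and 3 of 11, and integrins 4 and 2 of 20.

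**Figure D1:**
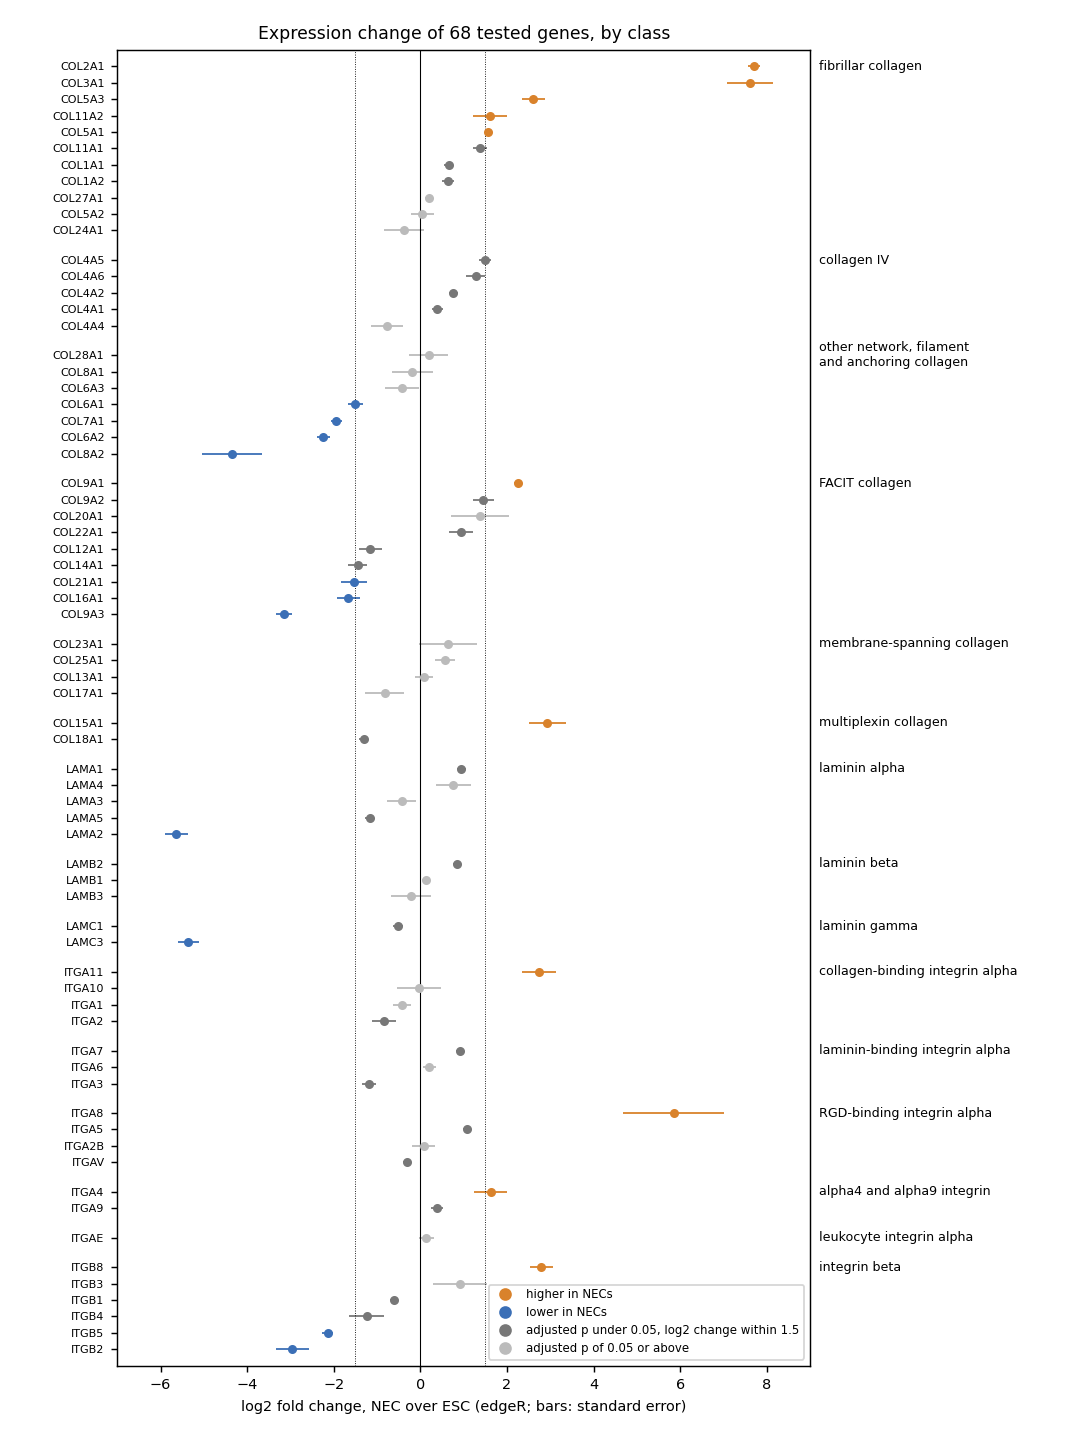
Log2 fold change of NECs over ESCs (horizontal axis) with its standard error (bars) for 68 of the 69 tested genes, grouped by class, with dotted lines at 1.5 in each direction. Fibrillar collagens lie at or to the right of 0 apart from COL24A1, and the called members among the other network, filament and anchoring collagens, LAMA2 and LAMC3 lie to the left.

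Level per length, the mean CPM per kilobase of exon, shows which chains dominated. In ESCs COL18A1, which carries endostatin at its end, was highest at 100 ± 6.54 (SD, n = 2). COL6A1 at 60.8 ± 8.03, COL6A2 at 60.2 ± 4.19 and the integrin chain ITGB5 at 59.7 ± 7.65 followed and differed by less than their SDs. LAMC1, the gamma chain of most laminins, reached 47.0 ± 3.91, and ITGB1, the beta chain shared by most matrix-binding integrins, reached 40.2 ± 0.297. In NECs COL2A1 led at 85.7 ± 4.55. COL18A1 came next at 40.4 ± 1.49, within the spread of COL4A6 at 33.1 ± 10.6. LAMC1 at 32.8 ± 3.02 and COL1A2 at 32.8 ± 3.22 differed by less than their SDs, and COL11A1 followed at 29.1 ± 0.325. The leading collagen thus went from a basement membrane zone chain to a cartilage-type fibrillar chain, while LAMC1 and COL18A1 stayed near the top in both cell types.

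**Figure D2:**
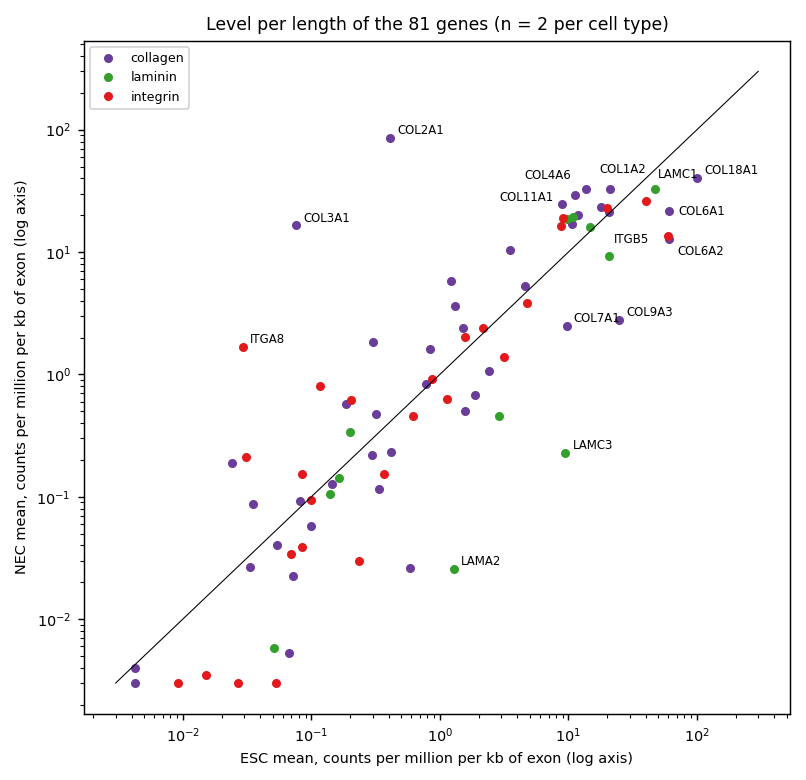
Mean level per length in ESCs (horizontal) and NECs (vertical), in CPM per kilobase of exon on log axes, for the 81 genes coloured by family, with the line of equal levels and with values under 0.003 drawn at 0.003. COL2A1 and COL3A1 lie far above the line, LAMA2 and LAMC3 far below it, and COL18A1 and LAMC1 lie in the upper right, near the top in both.

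Among the 11 fibrillar collagens, 5 were called higher, none was called lower, and 8 rose at the adjusted p alone, with a median log2 fold change of 1.38 against 0.01 over all genes. COL2A1 (ENSG00000139219, chr12:48366748-48398269), the fibril chain of cartilage that is also made by the early notochord and neural epithelium, had 47 and 73 counts in ESCs and 11752 and 14626 in NECs. It went from one of the scarcer fibrillar chains to the most abundant, with a log2 fold change of 7.70 ± 0.14 (SE, edgeR's adjusted p = 5.18e-06). COL3A1 (chr2:189839046-189877472), the fibril chain of soft tissues and vessel walls, had 1 and 24 counts in ESCs and 2962 and 2108 in NECs. Its log2 fold change was 7.61 ± 0.54 (adjusted p = 0.000106), and it ranged from 6.82 without ESC replicate 1 to 10.89 without ESC replicate 2. The latter rests on a library with 1 count, so its size depends on the prior count of the fit. ESC replicate 2 was also the library with the higher mesendoderm sum. A list of 10 mesenchyme and fibroblast markers summed to 255 and 269 CPM in ESCs and 170 and 181 CPM in NECs. Of 8 tested, 4 were called higher and 1 lower. Most of the sum in ESCs was THY1 (mean 233 CPM, and 72.6 CPM in NECs), the 1 gene called lower, and the fall of the sum rested on it. ACTA2, LUM, PDGFRB and PRRX1 were called higher, with log2 fold changes of 4.68, 3.93, 1.75 and 5.07. The part of such cells in the COL3A1 count was not tested.

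The other called fibrillar chains were COL5A3, COL11A2 and COL5A1, which encode regulatory chains of thin fibrils. COL5A1 had 722 and 987 counts in ESCs and 2500 and 2844 in NECs, with a log2 fold change of 1.57 ± 0.09 (adjusted p = 4.62e-05), just past the threshold. COL11A2 (24, 36, 118 and 70 counts) had a log2 fold change of 1.60, which fell to 1.05 without NEC replicate 1 and to 1.49 without ESC replicate 1 and was then no longer called. COL11A1, a further chain of thin fibrils, had 2251 and 2095 counts in ESCs and 5621 and 6592 in NECs. It rose by less than the threshold at 1.38 ± 0.16 (adjusted p = 0.000648), and passed it at 1.62 without ESC replicate 1. The chains of collagen I, the main fibril of bone and skin, rose by like amounts, COL1A1 by 0.66 ± 0.11 and COL1A2 by 0.64 ± 0.14 on the log2 scale. COL1A2 had 3776 and 6305 counts in ESCs and 8107 and 8144 in NECs, without overlap. COL5A2, the partner chain of COL5A1, had 2001 and 4841 counts in ESCs and 3565 and 3560 in NECs. Its ESC libraries enclosed the NEC values (log2 fold change 0.04 ± 0.26, adjusted p = 0.902), and the higher of them was again ESC replicate 2. COL27A1 (0.20, adjusted p = 0.0981) and COL24A1 (-0.38, adjusted p = 0.499) did not pass the test.

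Collagen IV gave no call, but 4 of its 5 tested chains rose at the adjusted p alone. The X-linked chains had the larger differences. COL4A5 had 2105 and 2432 counts in ESCs and 7033 and 6354 in NECs (log2 fold change 1.48 ± 0.14, adjusted p = 0.000301), and COL4A6 had 2621 and 2848 in ESCs and 8045 and 5860 in NECs (1.27 ± 0.22, adjusted p = 0.00295). Without NEC replicate 2 they came to 1.65 and 1.56 and were called. For COL4A5 the same held without ESC replicate 1 (1.55) and with scaling by library size alone (1.55). COL4A1, the most common chain of basement membranes, had 5063 and 6330 counts in ESCs and 6562 and 9388 in NECs, and rose by 0.39 ± 0.12 (adjusted p = 0.0316). Its partner chain COL4A2 rose by 0.76 ± 0.10 (adjusted p = 0.0011). The chains of kidney and lung type were scarce: COL4A3 had 7 to 10 counts in each library and was not tested, and COL4A4 had 15 to 26. The genes of each head-to-head arrangement were thus of like level, at 2105 or more counts in every library for COL4A1/COL4A2 and COL4A5/COL4A6 and at 26 or fewer for COL4A3/COL4A4.

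Of the 7 tested network, filament and anchoring collagens, 4 were called lower and none higher. COL6A1 and COL6A2, neighbours on chromosome 21 whose products form beaded microfibrils, were among the highest ESC chains. COL6A1 had 5763 and 9103 counts in ESCs and 2946 and 2466 in NECs (2.83-fold lower, adjusted p = 0.000627), and COL6A2 had 5769 and 8337 in ESCs and 1670 and 1432 in NECs (-2.24 ± 0.16, adjusted p = 9.98e-05). COL6A1 lay at the edge of the threshold, and its log2 fold change was not called without ESC replicate 2 (-1.37), without NEC replicate 2 (-1.29) or with library size alone (-1.44). COL6A3, the third chain of the same microfibril, was at 75 to 190 counts with overlapping groups (adjusted p = 0.367). COL7A1, the anchoring fibril under skin epithelium, fell by 1.95 on the log2 scale. COL8A2, a short chain of endothelial and corneal sheets, had 52 and 67 counts in ESCs and 0 and 6 in NECs (log2 fold change -4.35 ± 0.69, adjusted p = 0.00218). Its value ranged from -3.46 without NEC replicate 1 to -8.89 without NEC replicate 2, the latter against the library with no count and therefore set by the prior count.

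Of 9 tested FACIT collagens, 1 was called higher and 3 lower, and chains of a single molecule moved apart. Collagen IX is built from the products of COL9A1, COL9A2 and COL9A3. COL9A1 rose from 247 and 298 counts in ESCs to 1286 and 1472 in NECs (log2 fold change 2.25 ± 0.10, adjusted p = 2.64e-05). COL9A2 rose under the threshold, from 106 and 135 to 397 and 292 (1.45 ± 0.25, adjusted p = 0.00274), and was called without NEC replicate 2 (1.74). COL9A3 fell from 2649 and 2479 counts to 282 and 343 (-3.15 ± 0.18, adjusted p = 5.13e-05). Per length, COL9A3 was the highest of these chains in ESCs at 24.8 ± 5.85 CPM per kilobase and COL9A1 the highest in NECs at 5.80. COL16A1 and COL21A1, which coat fibrils, were also called lower, and each lost its call without NEC replicate 1 (-1.32 and -1.37). COL12A1 and COL14A1, which bind collagen I fibrils, fell under the threshold (-1.16 and -1.45). Without NEC replicate 2 they came to -1.66 and -1.72 and were called.

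The multiplexins, basement membrane zone collagens with sugar chains, diverged as well. COL18A1, the highest ESC chain, had 16779 and 20039 counts in ESCs and 7129 and 8671 in NECs and fell under the threshold by 1.31 ± 0.11 on the log2 scale (adjusted p = 0.000181). COL15A1 had 3 and 4 counts in ESCs and 29 in each NEC library and was called higher (2.93 ± 0.42, adjusted p = 0.00138), though at a level far below COL18A1. None of the 4 membrane-spanning collagens (COL13A1, COL17A1, COL23A1, COL25A1) passed the test. COL23A1 had 150 and 132 counts in ESCs and 371 and 83 in NECs, and its direction hung on the NEC library. Its log2 fold change was 0.64 (adjusted p = 0.438), -0.97 without NEC replicate 1 (adjusted p = 0.0402) and 1.39 without NEC replicate 2 (adjusted p = 0.00313). The higher NEC count was that of NEC replicate 1, the library with the higher neural crest sum, whose part was not tested.

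**Figure D3:**
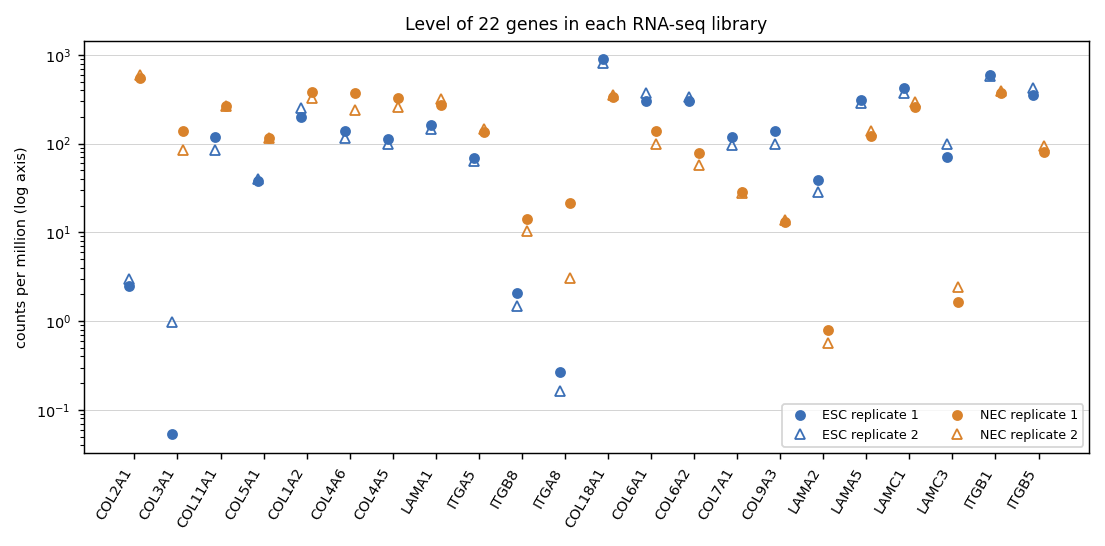
CPM on a log axis in each of the 4 RNA-seq libraries for 22 collagen, laminin and integrin genes, ESC libraries in blue and NEC libraries in orange, replicate 1 filled and replicate 2 open. COL3A1 in ESCs and ITGA8 in NECs show the widest gaps between replicates, and the cell types do not overlap for any of the 22 genes.

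Laminin chains gave only lower calls, 3 of 11 tested. LAMA2 (chr6:129204286-129837714), the alpha chain of muscle and nerve laminin, had 737 and 710 counts in ESCs and 17 and 14 in NECs. This was the deepest fall of the 69 genes, at -5.64 ± 0.26 (adjusted p = 2.77e-05) or 49.7-fold lower. LAMC3 (chr9:133884469-133969860), a gamma chain found outside most basement membranes and in the nervous system, had 1327 and 2433 counts in ESCs and 35 and 60 in NECs (-5.36 ± 0.25, adjusted p = 2.77e-05). The chains of the common basement membrane laminins moved less. LAMA5 fell from 5814 and 7109 counts to 2641 and 3469 (-1.17 ± 0.10, adjusted p = 0.000226), and LAMA1, the alpha chain of the earliest embryonic laminin, rose from 3027 and 3630 to 5903 and 7781 (0.95 ± 0.11, adjusted p = 0.000553). Their order reversed: per length LAMA5 was the higher in ESCs (20.8 against 9.68 CPM per kilobase) and LAMA1 in NECs (18.6 against 9.24). LAMC1 fell by 0.52 ± 0.11 from 7932 and 9233 counts to 5546 and 7293, and the beta chain LAMB2 rose by 0.84 ± 0.09. LAMB1, the most abundant beta chain by counts, had 5356 and 6439 counts in ESCs and 6119 and 7620 in NECs and did not pass the test (0.13, adjusted p = 0.286). LAMA3, LAMA4 and LAMB3 stayed at 115 counts or fewer in each library and did not pass the test.

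Integrin alpha chains included 3 called higher and none lower of 14 tested. ITGA8, which pairs with ITGB1 and binds matrix proteins with an RGD motif such as nephronectin, had 5 and 4 counts in ESCs and 462 and 75 in NECs. Its log2 fold change was 5.85 ± 1.16 (adjusted p = 0.00526), and 3.84 without NEC replicate 1. The 10 neural crest markers, of which 6 were called higher and 1 lower, summed to 293 CPM in that library and 165 CPM in NEC replicate 2, but not all of them differed between the NEC replicates. SOX10 (393 and 17 counts) and FOXD3 (186 and 9), both not called between cell types, did. So did TFAP2B (339 and 36), TFAP2A (117 and 17), PAX3 (1416 and 441) and ETS1 (609 and 120). NGFR (1675 and 1947), SOX9 (726 and 731), SNAI2 (524 and 485) and SOX8 (289 and 263) were close. The part of such cells in the ITGA8 count was not tested. ITGA11, a receptor for fibrillar collagen, had 5 and 10 counts in ESCs and 41 and 66 in NECs (2.73 ± 0.40, adjusted p = 0.00149). ITGA4, a receptor for fibronectin and VCAM1, had 46 counts in each ESC library and 188 and 109 in NECs (1.62 ± 0.38, adjusted p = 0.0105). It was not called without NEC replicate 1 (1.05) or without ESC replicate 2 (1.43).

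The more abundant alpha chains gave no call. ITGA6, which pairs with ITGB1 or ITGB4 to bind laminin, had 2533 and 3290 counts in ESCs and 2822 and 4361 in NECs, with overlapping groups (0.21 ± 0.14, adjusted p = 0.241). ITGA5, the fibronectin receptor, rose by 1.07 ± 0.09 and ITGA7, a laminin receptor, by 0.90 ± 0.08. ITGA3, also a laminin receptor, fell by 1.18 on the log2 scale, and ITGAV by 0.31. The collagen receptors ITGA1 and ITGA10 did not pass the test, and ITGA2 fell by 0.84.

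Beta chains had 1 higher and 2 lower calls of 6 tested. ITGB1 had 11111 and 14401 counts in ESCs and 8000 and 9616 in NECs and fell under the threshold by 0.62 ± 0.10 (adjusted p = 0.00195). ITGB5 and ITGB8, which both pair with ITGAV, moved in opposite directions. ITGB5 fell from 6683 and 10496 counts to 1731 and 2346 (-2.14 ± 0.13, adjusted p = 7.07e-05), and ITGB8 rose from 39 and 37 to 300 and 257 (2.79 ± 0.27, adjusted p = 0.000312). ITGB5 was still the higher in NECs, at 13.5 against 0.806 CPM per kilobase. ITGB2, the beta chain of leukocyte integrins, had 30 and 46 counts in ESCs and 5 in each NEC library (-2.96 ± 0.38, adjusted p = 0.000958). Its alpha partners had few counts and were not tested. ITGAM had 6 and 7 counts in ESCs and none in NECs, and ITGAL 7 and 4 and none. ITGAX had 11 and 10 in ESCs and 6 and 5 in NECs, and ITGAD 0 and 2 and none. A count of 0 was read against a floor of 3 counts per library, so ITGAM was at least 2.20-fold and ITGAL at least 1.95-fold higher in ESCs. The 10 leukocyte markers summed to 13.3 and 13.7 CPM in ESCs and 22.4 and 28.0 CPM in NECs. Of 5 tested, CD52 and IKZF1 were called higher and RUNX1 lower, and the defining PTPRC (7, 16, 1 and 0 counts) and SPI1 (1, 6, 0 and 0) had too few counts to test. Their part in the ITGB2 count was not tested.

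The 12 genes that were not tested were COL4A3, COL6A5, COL6A6, COL10A1, COL19A1, LAMB4, ITGAD, ITGAL, ITGAM, ITGAX, ITGB6 and ITGB7. None of them had more than 21 counts in any library. With no filter on low counts all 81 genes were tested, and COL6A6, COL10A1, LAMB4, ITGAL and ITGAM were called lower as well, while DESeq2 without a filter gave 11 higher and 12 lower calls. LAMB4, with 6 and 10 counts in ESCs and 0 and 2 in NECs, was at least 2.64-fold higher in ESCs. COL10A1 had 2 and 10 counts in ESCs and 0 and 1 in NECs. Its ESC replicate 1 was itself under the floor of 3 counts, so no bound is given.

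Genes that work with these chains were read from 4 lists. Of 82 listed genes 80 were tested, 9 were called higher and 10 lower (23.8% called, near the 21.0% of all tested genes, of which 11.4% were higher and 9.68% lower). Among 12 basement membrane partners 4 were higher and 1 lower. SMOC1, a calcium-binding matrix protein, rose from 28 and 21 counts to 6136 and 6002 (7.87 ± 0.22), and FRAS1, which anchors epithelium to its basement membrane, fell from 7032 and 8361 to 1542 and 2180 (-2.15 ± 0.13). Among 19 tested integrin ligands and other matrix proteins 2 were higher and 3 lower. VTN, the RGD protein vitronectin bound by ITGAV with ITGB5, rose from 4 and 3 counts to 266 and 551 (6.71 ± 0.48), and SPP1, osteopontin, fell from 6044 and 4845 to 250 and 958 (-3.34 ± 0.53).

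Among 27 tested genes of collagen biosynthesis 1 was higher and 4 lower. GLT25D2, a collagen galactosyltransferase, rose from 139 and 131 counts to 1484 and 1475 (3.36 ± 0.18), and PLOD2, a lysyl hydroxylase that sets the cross-links of fibrils, fell from 4448 and 1639 to 315 and 272 (-3.55 ± 0.59). Among 22 integrin adaptors and effectors 2 were higher and 2 lower, and 12 fell at the adjusted p alone against 5 that rose, where 29.7% of all tested genes fell and 31.5% rose. CD47, a membrane partner of integrins with the beta chain of ITGB3, rose from 342 and 400 counts to 1656 and 1775 (2.13 ± 0.11), and CD9, a tetraspanin, fell from 3894 and 3579 to 157 and 371 (-3.96 ± 0.34).

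In PCHi-C, 79 of the 81 genes had their start on a bait (not COL6A5 and ITGAM), on 77 of 21833 baits. A promoter-interacting region (PIR) is the fragment that a bait was called to contact. CHiCAGO scores a pair of fragments by the negative log of its distance-weighted p-value, and a score of at least 12 was a call, in a replicate or in both replicates of a cell type merged. Read numbers were not given with the scores, which leaves the depth of each call unknown, and pairs below the threshold are not listed. The 77 baits had 349 PIRs in the merged ESC list and 455 in the merged NEC list, 1.30 times as many, while all baits had 99302 and 99181. The replicates did not separate: the ESC lists held 342 and 292 and the NEC lists 421 and 291, and the excess lay in NEC replicate 1. The median bait had 3 PIRs in ESCs and 4 in NECs, against 2 and 2 over all baits, and 182 PIRs were shared between the merged lists (52.1% of those in ESCs and 40% of those in NECs).

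Contacts of some of these genes stayed within the gene itself. Of the merged PIRs, 88 of 349 in ESCs (25.2%) and 120 of 455 in NECs (26.4%) overlapped the protein-coding gene that starts in the bait. These were unevenly spread: COL23A1 alone gave 32 in ESCs and 27 in NECs, COL27A1 7 and 15, and ITGA9 6 and 14. Many baits had none. Over all baits with a protein-coding start the shares were 9.95% and 9.46%. The 79 genes are long, with a median of 90.5 kb against 27.9 kb for all protein-coding genes with a baited start, and the part of length in this share was not tested. The share was also higher in each replicate, at 15.1% to 19.9% against 4.87% to 5.36%. PIRs lay at a median of 194 kb from the bait for ESCs and 190 kb for NECs, and 197 kb and 217 kb over all baits.

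COL23A1, a membrane-spanning collagen (chr5:177664619-178017556), had the most PIRs (36 for ESCs, 32 for NECs), of which 32 and 27 lay inside its own 353 kb gene. Its replicates had 29 and 10 in ESCs and 26 and 15 in NECs. All 7 of its retained contacts, those called in each of the 4 replicates, lay in the gene, between 277 kb and 349 kb from the bait, toward its far end. The strongest in NECs, to an intron fragment (chr5:177706077-177710359), scored 27.8 in merged ESCs and 40.5 in merged NECs. COL25A1, a brain collagen in the same class, had 8 of 11 and 7 of 9 PIRs inside the gene, and COL27A1 7 of 10 and 15 of 19.

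COL12A1, a FACIT collagen, had 12 ESC and 27 NEC PIRs, and all lay beyond the far end of the gene, from 462 kb to 1505 kb from the bait in ESCs and from 765 kb to 1573 kb in NECs. The ESC replicates held 15 and 17 and the NEC replicates 40 and 17, and the difference rested on NEC replicate 1. Without this bait the merged totals were 337 and 428. Its transcript fell under the threshold (log2 fold change -1.16), while its merged PIR number was higher in NECs.

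ITGA6 and ITGA4 had contacts on 1 side only. ITGA6, the laminin receptor chain, had 11 ESC and 20 NEC PIRs, all upstream, between 37.6 kb and 874 kb from the bait, and its replicates did not overlap (6 and 4 against 9 in each NEC replicate). ITGA4, the fibronectin receptor chain, had 7 and 18, all upstream as well, up to 1365 kb away, in replicates with 8 and 2 against 11 and 9. The strongest ITGA4 contact, 356.9 kb upstream in a stretch with no protein-coding gene, scored 16.9 in merged ESCs and 30.7 in merged NECs. Its transcript was among those called higher, whereas that of ITGA6 did not pass the test. ITGA10 had 14 and 18 PIRs (9 and 6 in ESC replicates, 21 and 13 in NEC replicates) on both sides of its bait, with a transcript at 7 to 21 counts in every library. ITGB7 went the other way, with 21 ESC and 13 NEC PIRs (16 and 9 against 3 and 3), and a transcript too low to test.

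**Figure D4:**
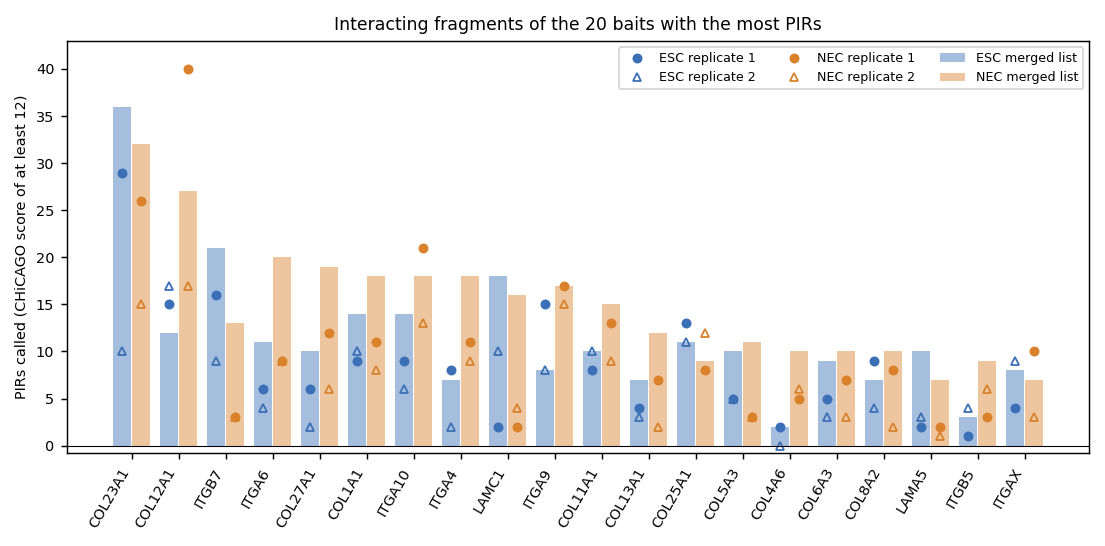
Number of PIRs (vertical axis) for the 20 baits with the most in either merged list, bars for the merged lists and points for each replicate, ESCs in blue and NECs in orange. COL23A1 leads with 36 and 32, ITGA6, ITGA10, ITGA4 and COL4A6 have both NEC replicates above both ESC replicates, and ITGB7 and COL5A3 have both below.

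Both NEC replicates had more PIRs than either ESC replicate at 9 of the 77 baits, those of COL1A2, COL4A6, COL22A1, ITGA1, ITGA2, ITGA4, ITGA6, ITGA10 and LAMB4. This held for 13.1% of all baits. The reverse held at 5 baits, among them those of COL5A3, COL21A1, ITGB6 and ITGB7, and for 12.8% of all baits. Neither count is above the share over all baits.

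A contact counted as gained when it was called in both NEC replicates and the merged NEC list, in no ESC list, and with a merged score in the highest of 5 equal groups, and as lost in the reverse case. There were 6 gained contacts at 3 baits (3.03% of all baits had one) and 1 lost contact at 1 bait (3.0%). ITGA9, an integrin chain that binds tenascin and VCAM1, gained 3, all in introns of its own gene, at 244.5, 318.4 and 330.5 kb from the bait (merged NEC scores 20.6, 18.8 and 19). ITGA6 gained 2, at 138.2 and 243.9 kb upstream (21.1 and 19.2), and ITGA10 gained 1, over an exon at its own far end 18.6 kb away (19.7). When PIRs within 10 kb were counted as the same, 1 gained contact was left, at ITGA6, and no lost contact. The ITGA6 contact at 243.9 kb, for example, lay on the fragment next to a retained contact at 248.8 kb. With a score of at least 15 asked of both replicates, none was left.

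**Figure D5:**
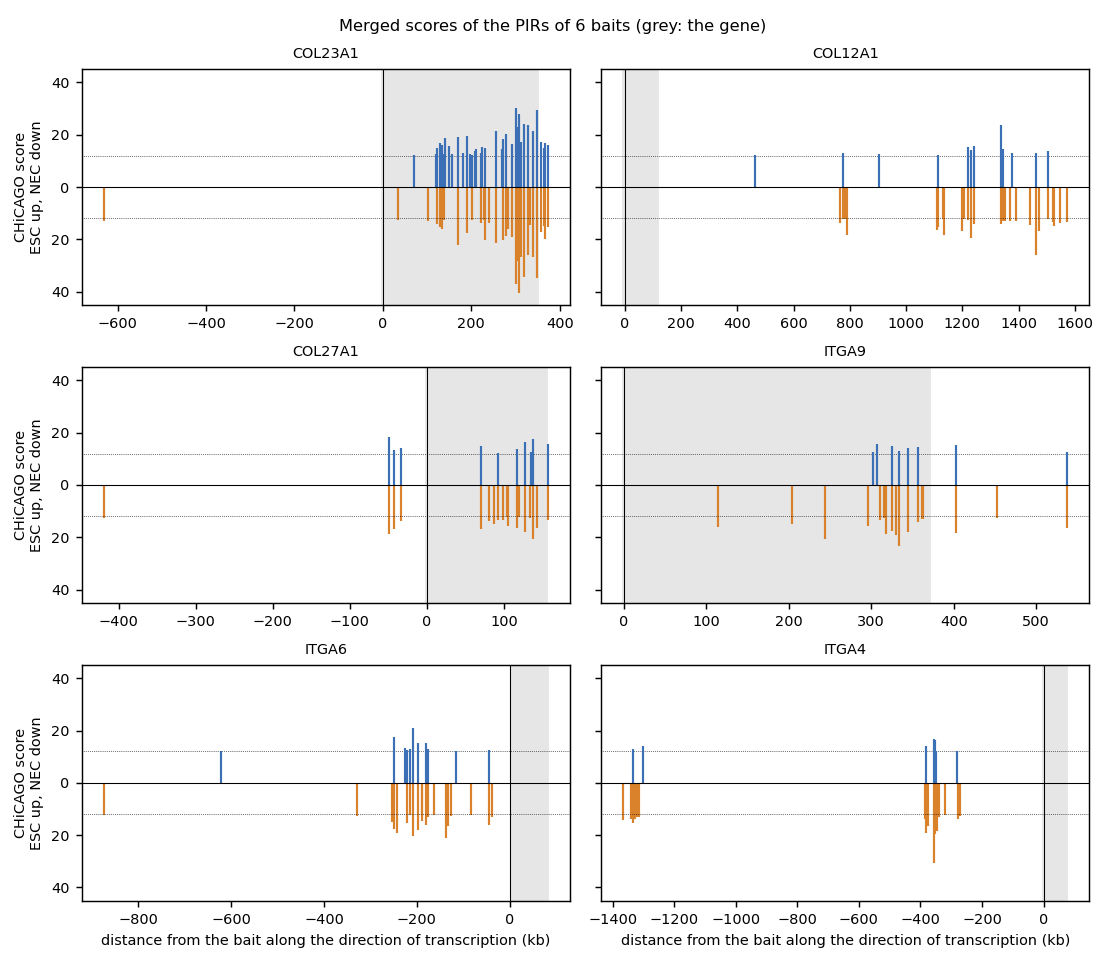
Merged CHiCAGO scores of PIRs (vertical, ESC upward and NEC downward, dotted lines at 12) by distance in kb from the bait centre along the direction of transcription (horizontal), for 6 baits, with the gene in grey. PIRs of COL23A1, COL27A1 and ITGA9 lie mostly in the gene, those of COL12A1 beyond its far end, and those of ITGA6 and ITGA4 upstream.

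The lost contact joined LAMA5 to a fragment over OGFR, 495 kb away on chromosome 20 (chr20:61440411-61447558, merged ESC score 18.1, replicates 14.2 and 13.8). That fragment is the neighbour of the COL9A3 bait, and neighbouring HindIII fragments always abut. No call joined the baits of LAMA5 and COL9A3 themselves. The COL9A3 bait did contact the fragment that abuts the LAMA5 bait (chr20:60958237-60964706), 487 kb away. That contact had a merged ESC score of 13.5 and was absent from the merged NEC list. For each cell type it was called by replicate 1 alone, scoring 13.2 for ESCs and 12.2 for NECs. The COL9A3 transcript was called lower in NECs, and that of LAMA5 fell under the threshold (log2 fold change -1.17). LAMB1 and LAMB4, neighbours on chromosome 7, were joined in the merged NEC list alone, from both ends (13.5 and 14.1) and in no replicate.

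Retained contacts numbered 25 at 14 of the 77 baits, and 18.3% of all baits had one. The strongest in ESCs were those of ITGAE, the alpha chain of lymphocytes in epithelium, over its own exons and the GSG2 start (merged scores 36.7 in ESCs and 34.2 in NECs) and of COL1A1 to the TMEM92 start 70.9 kb away (34.3 and 34.1). COL1A1 had 14 ESC and 18 NEC PIRs, with 12 shared, and COL1A2 kept 2 contacts about 99 kb upstream. COL11A1 had a retained contact with another chromosome, to an intron of TMEM135 (chr11:86764436-86767463), scoring 21.6 and 20.8 in ESC replicates and 15.2 and 12.5 in NEC replicates. The contact was in the merged ESC list (18.6) but not in the merged NEC list. That fragment was called by 3 baits, all on other chromosomes, and 56 such contacts between chromosomes, from 21 baits, were called in all 4 replicates over the whole data. Whether these rest on repeated sequence was not tested.

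At the collagen IV gaps, the COL4A6 bait had 2 ESC and 10 NEC PIRs (replicates 2 and 0 against 5 and 6), of which 2 and 8 lay in its gene. The COL4A5 bait, the adjoining fragment of 327 bases, had 1 in each cell type, both in introns of COL4A6. The NEC contact was to the fragment (chrX:107468024-107471712) that COL4A6 also contacted in NECs, at scores of 12.3 and 16.4. The shared COL4A1/COL4A2 bait had 6 and 5, all inside those genes, and the COL4A4/COL4A3 bait 2 and 0. LAMC1 had 18 and 16 PIRs (replicates 2 and 10, and 2 and 4). Of the genes with the largest changes in transcript, COL2A1 had 2 in ESCs and 7 in NECs (replicates 8 and 0, and 13 and 5), LAMC3 had 3 and 5, and COL3A1 and LAMA2 had none in either merged list. In the replicate lists, COL3A1 had 7 and 3 in ESCs and 2 and 3 in NECs, and LAMA2 had 1 and 7 against 2 and 1. The baits of LAMA1, COL18A1 and ITGA11 had no merged PIR as well and at most 3 in a replicate.

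PIR number and expression were set side by side. The 11 baits of genes called higher, 2 of them with no merged PIR, had 29 ESC and 48 NEC PIRs in the merged lists. More were called in NECs at 7 of these baits. The 12 baits of genes called lower, 1 of them with none, had 31 and 37, with more in NECs at 4 and more in ESCs at 4. Over all 77 baits (349 and 455 PIRs) 36 had more in NECs and 21 more in ESCs, and over all 21833 baits 8529 and 8211 did. Merged and replicate lists could differ. COL5A3, called higher, had 10 and 11 merged PIRs, but 5 in each ESC replicate and 3 in each NEC replicate. A last comparison used 58 baits with at least 1 merged PIR and the start of only 1 tested collagen, laminin or integrin gene. Some of these baits also held starts of other genes, such as RDH8 with COL5A3 and PELO with ITGA1. PIRs of such baits cannot be assigned to 1 gene. Spearman's rho between the log2 ratio of PIR numbers and the log2 fold change was 0.22. This is a description only, since many baits had few PIRs and all share the same libraries.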

How the data were processed

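Poly-A RNA-seq and PCHi-C libraries of ESCs and NECs (2 biological replicates each) were compared, and the Hi-C samples were not analysed here. The authors aligned single-end reads to GRCh37 and deposited raw read counts per gene on Ensembl v70, made in SeqMonk without strand (TopHat2 2.0.8b and Bowtie 1.0.0 in the submitters' processing notes). For PCHi-C the authors deposited CHiCAGO scores of at least 12 for HindIII fragments, per replicate and merged.

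Here, gene counts were fitted with edgeR 4.0.16 in R 4.3.3 (TMM scaling, genes filtered at a minimum count of 10, quasi-likelihood test, prior count 0.125, Benjamini-Hochberg adjustment over all tested genes). CPM used TMM-scaled library sizes, and levels per kilobase used the joined length of all exons annotated for the gene. SE is the log2 fold change divided by the root of F. The fit was tested on simulated data. DESeq2 1.42.0, other scalings and filters, and libraries left out were alternatives. A bait was assigned to a gene when it held its start. Upstream sequence and gene starts came from GRCh37 with its GENCODE annotation. Plots used matplotlib 3.10.9 and python 3.11.15. Members, partner lists and markers were chosen with earlier results of these data known. Genes given in full were the highest and lowest called of each class and the 10 highest per length in either cell type. Baits described were the 6 with the most PIRs, those with gained or lost contacts and those shared by, or joined between, members. Further genes and baits (among them COL3A1, COL4A2, COL5A2, COL7A1, COL9A2, COL14A1, ITGAE and ITGAM) were described after their values were seen. Some results are not reported here.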

Additional observations from a re-analysis of the deposited data

How the results depend on the processing

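The 7 higher calls of COL2A1, COL3A1, COL5A1, COL5A3, COL9A1, ITGA8 and ITGB8 and 8 lower calls, among them COL6A2, COL7A1, COL8A2, COL9A3, ITGB5, LAMA2 and LAMC3, were made under each of the 12 settings of the RNA-seq fit, and none of the called genes turned sign. The log2 fold change of 11 genes that were not called did, with libraries left out: COL13A1 (-0.091 to 0.25), COL23A1 (-0.97 to 1.39), COL28A1 (-0.38 to 0.57), COL5A2 (-0.35 to 0.55), COL6A3 (-1.07 to 0.0095), COL8A1 (-0.90 to 0.26), ITGA10 (-0.91 to 0.46, and 0.018 with library size alone), ITGA2B (-0.26 to 0.35), ITGA6 (-0.021 to 0.41), ITGAE (-0.014 to 0.28) and LAMB3 (-0.87 to 0.21). COL23A1 passed the adjusted p in both directions. COL6A1, COL11A2, COL16A1, COL21A1 and ITGA4 lost their call under at least 1 setting. COL15A1, ITGA11 and ITGB2 were each called under 11 of the 12 settings. Leaving out 1 RNA-seq library gave 10 to 14 higher and 10 to 15 lower calls among the 81 genes, 1770 to 2213 and 1524 to 1892 over all genes, and 9 to 11 and 8 to 12 among partners. With no fold threshold, 25 and 22 of the 81 genes, 28 and 30 partners and 5529 and 5209 of all genes passed. A minimum count of 50 left 1098 lower calls over all genes, where fewer genes were tested. With no filter on low counts, 11 higher and 17 lower calls were made among the 81 genes and 2269 and 2246 over all genes. DESeq2 called 11 and 12 of the 81 genes, 9 and 10 with shrunken fold changes. Scaling by library size alone moved the median of all genes to 0.07 on the log2 scale and called 13 higher and 10 lower. A replicate block called 11 and 12 of the 81 genes, 1987 and 1711 of all genes and 9 and 10 partners, and the same-numbered libraries shared only a number (the replicate differences of ESCs and NECs correlated at r = 0.074 over 17564 genes).

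In PCHi-C, leaving out 1 replicate gave 292 to 342 PIRs in ESCs and 291 to 421 in NECs, so the NEC excess was absent without NEC replicate 1. A score of at least 15 left 102 and 144. Gained and lost contacts came to 29 and 15 with no condition on the merged score and 8 and 4 with the highest of 3 groups. With no condition they lay at 16 and 13 of the 77 baits, where 17.5% and 18.6% of all baits had one. With 3 groups they lay at 5 and 4 baits, where 5.3% and 5.4% of all baits had one. They came to 1 and 0 with PIRs within 10 kb counted as the same, and to 0 and 0 with a replicate score of at least 15. Further alternatives, chosen after seeing the data, gave 333 and 440 PIRs for canonical starts alone, 337 and 428 without the COL12A1 bait, and 261 and 335 with PIRs inside the gene left out. Scores without read counts limit the PCHi-C comparison, since a pair absent from a list may lie just below the threshold.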

Other observations

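Some marker genes of other cell types moved between the cell types and are given as values only. Of 10 mesendoderm genes 8 were called lower in NECs, and their summed level was 8.65 and 8.51 CPM there. Of 7 tested endothelial genes CDH5 (4 and 0 counts in ESCs, 23 and 54 in NECs) and VWF were called higher and KDR lower. TFAP2B, a neural crest gene, had 0 counts in both ESC libraries and 339 and 36 in NECs.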
